A study of Homo sapiens with 2 samples.

Results

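The genes described here are those of amino acid transport families in A427, an established line of human non-small cell lung cancer whose cells grow both as floating spheres and attached to the dish. They were chosen by symbol alone: every symbol of the deposited tables that starts with SLC1A, SLC3A, SLC6A, SLC7A, SLC36A, SLC38A or SLC43A followed by a digit, hyphenated symbols left out, which gave 63 of 23686 genes. The 63 hold 7 SLC1, 2 SLC3, 4 SLC36, 11 SLC38, 3 SLC43, 20 SLC6 and 16 SLC7 symbols, among them 3 pseudogenes (SLC6A10P, SLC7A5P1 and SLC7A5P2) and SLC7A6OS, a neighbour of SLC7A6 that is not itself a carrier gene. An mRNA kit (KAPA mRNA HyperPrep) was used to sequence 1 library of floating, sphere-forming cells and 1 library of adherent cells, which were harvested apart. Cultures were kept in RPMI 1640 with fetal bovine serum at 5%. The labels name no agent and give the genotype of both as WT, while the series title calls the cells CTNNB1-mutated. With 1 library of each growth form there was no replicate, so no test was made and no p-value, SD or standard error is given.

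Amino acids cross membranes mainly through carriers. Heteromeric carriers pair a glycosylated heavy chain of the SLC3 family, which brings the complex to the surface, with a light chain of the SLC7 family that does the transport. Sodium-coupled SLC1, SLC6 and SLC38 carriers concentrate amino acids in the cell, proton-coupled SLC36 and some SLC38 members work at the lysosome, where amino acid supply is reported to mTORC1, and SLC43 members let neutral amino acids through by facilitated diffusion. Several of these genes belong to the targets of ATF4, the transcription factor that is made when amino acids run short, and tumour cells commonly raise SLC7A5, SLC3A2, SLC7A11 and SLC1A5.

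The floating library held 27148842 gene-assigned reads and the adherent library 26384670. Genes were compared where they reached 1 CPM (scaled counts per 1000000) in at least 1 library, which 13131 genes did. Ratios below are floating over adherent, from scaled counts, and the 95% interval beside a ratio is an exact binomial (Clopper-Pearson) interval for counting error alone, which leaves out how cultures vary. Levels are in TPM, which is corrected for transcript length and so allows comparison between genes. Over all genes compared, the median log2 ratio was -0.05 on TPM and -0.005 on scaled counts. TPM pairs and sums can therefore differ slightly from the ratios, and near 0 also in direction. In bulk RNA, fewer cells of a kind and less RNA per cell cannot be told apart. Of 7 epithelial markers 4 reached 1 CPM, and the 7 summed to 1791.91 TPM in floating and 1304.21 TPM in adherent cells. Among them KRT18 had 612.52 TPM in floating and 342.47 TPM in adherent cells, KRT8 581.13 TPM in floating and 326.59 TPM in adherent cells, EPCAM 581.81 TPM in floating and 615.34 TPM in adherent cells and CDH1 13.94 TPM in floating and 18.85 TPM in adherent cells. Markers of the lung adenocarcinoma lineage were near 0: 1 of 6 reached 1 CPM, the 6 summed to 1.81 TPM in floating and 2.07 TPM in adherent cells, SFTPA1, SFTPC and SCGB1A1 had 0 reads in both libraries, and NKX2-1 had 13 floating and 3 adherent reads. The marker of that list that reached 1 CPM, NAPSA, had 21 floating and 29 adherent reads (log2 ratio -0.51, -1.40 to 0.35). Of 7 leukocyte markers, CD3E and LYZ had 0 reads in both libraries and the sum of the 7 was 33.59 TPM in floating and 20.00 TPM in adherent cells, of which CD68 gave 31.46 TPM in floating and 16.88 TPM in adherent cells. PTPRC, the other leukocyte marker that reached 1 CPM, was lower in floating cells, with 121 reads in floating and 159 reads in adherent cells (log2 ratio -0.44, -0.80 to -0.09). The fibroblast list summed to 8.78 TPM in floating and 14.91 TPM in adherent cells, with COL1A1 alone at or above 1 CPM. COL1A1 was lower in floating cells, with 613 reads in floating and 999 reads in adherent cells (log2 ratio -0.75, -0.90 to -0.61). The endothelial list summed to 0.47 TPM in floating and 0.17 TPM in adherent cells, with CDH5 at 0 reads. VWF, the endothelial marker that reached 1 CPM, had 44 reads in floating and 14 reads in adherent cells (log2 ratio 1.57, 0.71 to 2.59) and was past the 2-fold rule given below. The part of these lists in the ratios below was not tested.

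Of the 63 members, 30 reached 1 CPM and 33 did not. Of those 33, 19 had 0 reads in both libraries, which allows a level of up to 0.111 CPM in floating and 0.114 CPM in adherent cells (3 reads), and 14 had between 1 and 23 reads in the library where they were higher. Members with few or no reads included carriers known from specialised tissues. Among them were SLC3A1, the heavy chain of kidney and gut, SLC1A2, the main glutamate carrier of astrocytes, SLC6A2, a carrier of noradrenaline, the glycine carrier SLC6A5 and SLC6A14, a broad carrier of epithelia, all at 0 reads, and the intestinal carriers SLC6A19 (1 read in each library) and SLC6A20 (0 reads). SLC7A3, a cationic amino acid carrier, had 0 reads in both libraries too.

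Transport transcripts were dominated by a small set of genes in both growth forms. The 63 members summed to 2025.02 TPM in floating and 2286.77 TPM in adherent cells, and the same 5 genes, SLC38A2, SLC38A1, SLC3A2, SLC7A5 and SLC1A5, made up 76.7% of that sum in floating and 78.1% in adherent cells. The SLC38 family held 54.0% of the sum in floating and 61.5% in adherent cells, and the SLC7 family 18.6% in floating and 14.1% in adherent cells. The SLC3 family held 10.9% in floating and 9.86% in adherent cells, the SLC1 family 9.66% in floating and 8.00% in adherent cells, and the SLC6 family, with the most symbols, 3.95% in floating and 3.75% in adherent cells. The sum was 0.886 times as large in floating as in adherent cells, and without SLC38A2 it was 1.02 times as large (1282.95 TPM in floating and 1262.82 TPM in adherent cells).

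**Figure D1:**
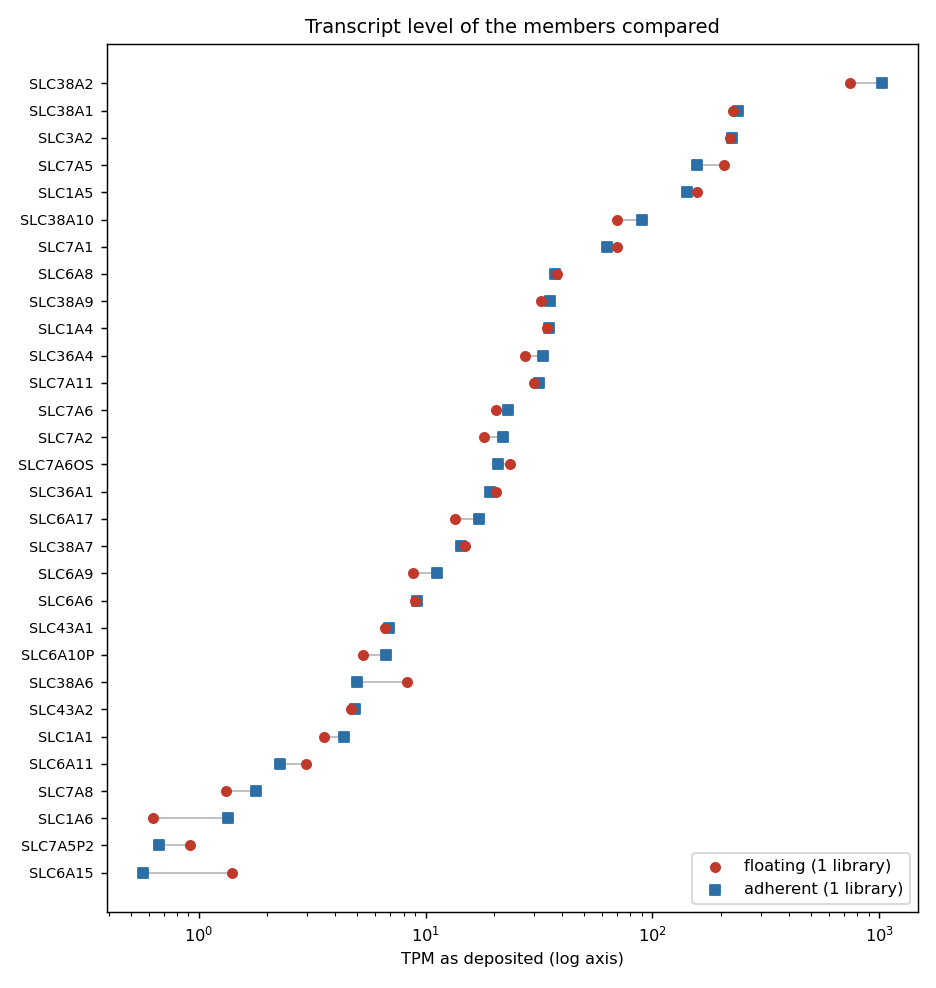
TPM of the 30 members that reached 1 CPM, on a log axis, in the floating library (circles) and the adherent library (squares), ordered by the adherent level. SLC38A2 stands above the other members at 742.07 TPM in floating and 1023.95 TPM in adherent cells, and most pairs of points lie close together.

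The members as a group lay on both sides of no difference. The median log2 ratio over the 30 compared was -0.004, against -0.005 over all genes compared, and 27 of 30 (90.0%) lay within 1.5-fold, against 93.3% of all genes. Under a rule that asks for a 2-fold ratio and an interval clear of no difference, 1 member was higher in floating cells (1.28% of all genes passed) and 1 was lower (0.754% passed). At 1.5-fold 2 members were higher (3.24% passed) and 1 was lower (2.90% passed). Counting intervals lay above 0 for 7 of 30 members, against 25.5% of all genes, below 0 for 11 of 30, against 25.6%, and included 0 for 12. An interval clears 0 more easily the more reads a gene has. The shares of all genes, here and below, were not matched for level. Among the 21 members of at least 10 CPM log2 ratios had an interquartile range of 0.33, against 0.28 over all genes of that level. With 30 members compared, 1 member is 3.33%, so counts of 1 or 2 do not set the members apart from the background shares.

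**Figure D2:**
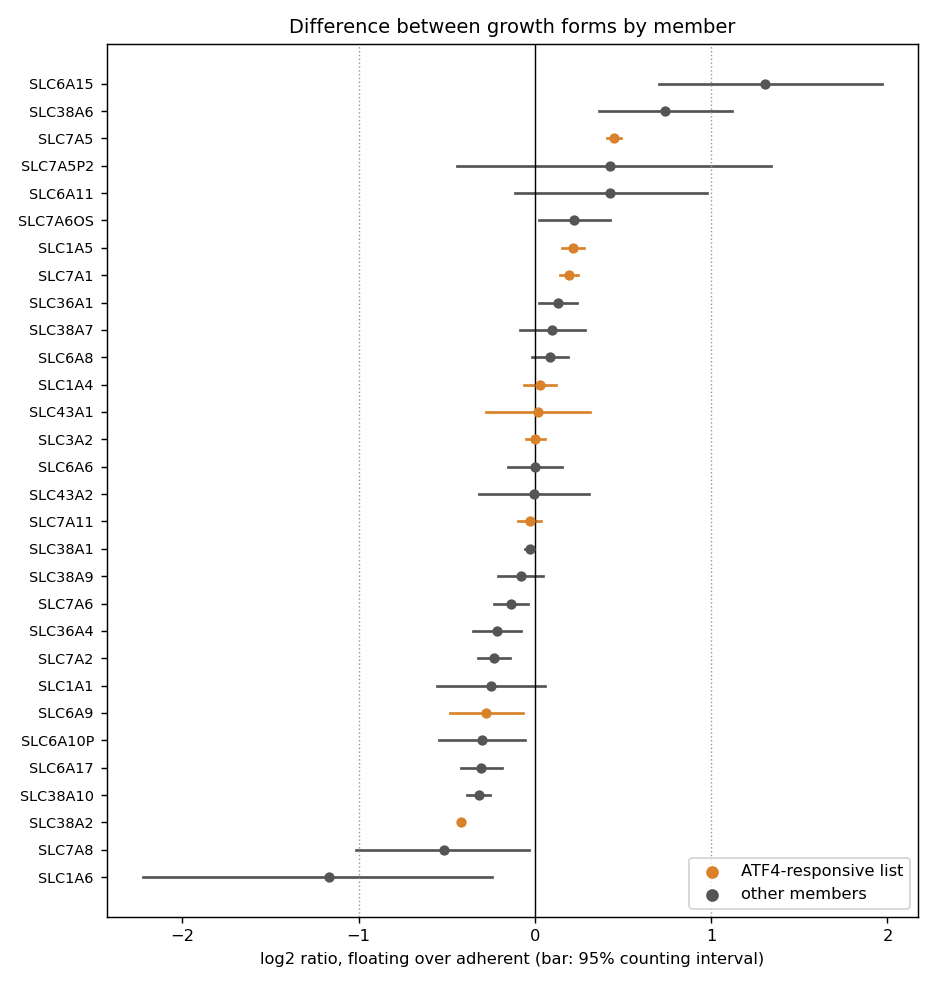
Log2 ratio of floating over adherent for the 30 members compared, with its 95% counting interval, members of the ATF4-responsive list in orange and the others in grey, and dotted lines at 2-fold. SLC6A15 (2.47-fold higher) and SLC1A6 (2.25-fold lower) lie past 2-fold with wide intervals, and SLC7A5 (0.45) and SLC38A2 (-0.42) are farthest from 0 among members of at least 10 CPM.

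The heteromeric carriers had a heavy chain within counting error of no difference and a main light chain that was higher in floating cells. SLC3A2, which encodes the heavy chain CD98hc (4F2hc), had 220.40 TPM in floating and 225.37 TPM in adherent cells, and its log2 ratio was 0.003 (interval -0.05 to 0.06), or -0.01 with upper-quartile scaling and -0.03 on TPM. SLC7A5, which encodes LAT1, the exchanger that brings in leucine and other large neutral amino acids, had 207.39 TPM in floating and 156.91 TPM in adherent cells. It was 1.36-fold higher in floating cells (interval 1.33 to 1.40, from 12077 reads in floating and 8561 reads in adherent cells), and its interval did not overlap that of SLC3A2. Among the 620 genes of at least 300 CPM, 11 (1.77%), SLC7A5 included, had a ratio at least as high. SLC7A11, which encodes xCT, the cystine and glutamate exchanger that feeds glutathione synthesis, had 30.02 TPM in floating and 31.62 TPM in adherent cells. Its log2 ratio was -0.03 (interval -0.09 to 0.04), a narrow interval that included no difference. SLC7A6, encoding y+LAT2, had 20.39 TPM in floating and 23.14 TPM in adherent cells, a 1.10-fold lower level (1.03 to 1.17). SLC7A8, encoding LAT2, was 1.43-fold lower (1.02 to 2.02), with 62 floating and 86 adherent reads. Of the other light chains, SLC7A7 had 16 reads in floating and 14 reads in adherent cells, SLC7A9 6 reads in floating and 10 reads in adherent cells, and SLC7A10 and SLC7A13 none.

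Set beside the heavy chain, the light chains had a larger sum in floating cells, and SLC7A5 was the only 1 of the 4 compared with a ratio above 0. Light chain transcripts summed to 259.98 TPM in floating and 214.56 TPM in adherent cells, so that SLC3A2 transcripts were 0.848 times that sum in floating and 1.05 times that sum in adherent cells. SLC7A5 made up 79.8% of light chain TPM in floating and 73.1% in adherent cells, and SLC7A11 11.5% in floating and 14.7% in adherent cells. Transcript ratios say nothing of how many chains are paired in the membrane. The pseudogenes SLC7A5P1 (21 reads in floating and 8 reads in adherent cells) and SLC7A5P2 (28 reads in floating and 20 reads in adherent cells) share sequence with SLC7A5, and the estimated counts of all 3 have decimals, as RSEM gives where reads are divided between genes. Summed over the 3, the log2 ratio was 0.45 (0.41 to 0.49), as for SLC7A5 alone.

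**Figure D3:**
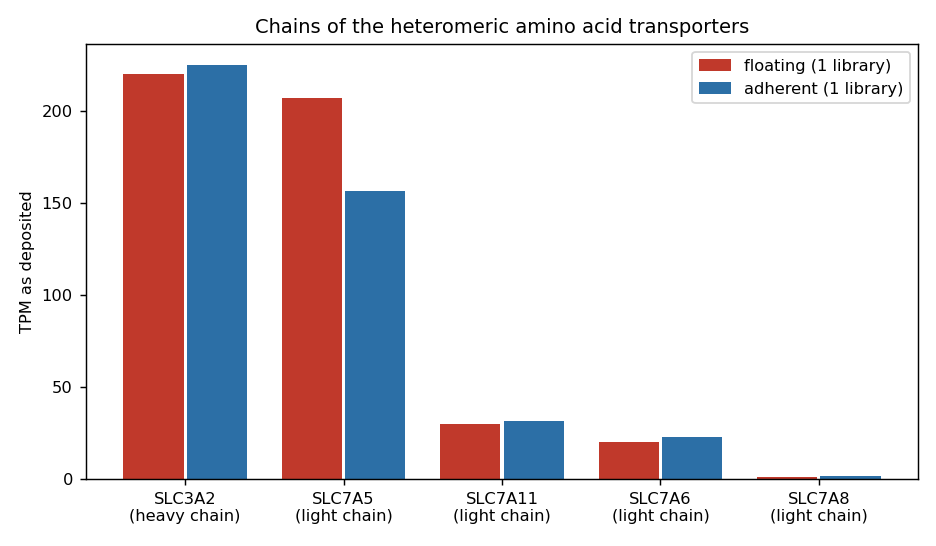
TPM of the heavy chain SLC3A2 and of the 4 light chains that reached 1 CPM, in floating cells (left bars) and adherent cells (right bars), 1 library each. SLC7A5 is higher in floating cells at 207.39 TPM, against 156.91 TPM in adherent cells, while SLC3A2 stands at 220.40 TPM in floating and 225.37 TPM in adherent cells and SLC7A11 at 30.02 TPM in floating and 31.62 TPM in adherent cells.

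Carriers of cationic amino acids split. SLC7A1, encoding CAT1, the broadly expressed arginine and lysine carrier, had 69.69 TPM in floating and 62.84 TPM in adherent cells and was 1.14-fold higher in floating cells (1.10 to 1.19). SLC7A2, encoding CAT2, had 18.01 TPM in floating and 21.84 TPM in adherent cells and was 1.18-fold lower (1.10 to 1.25). The intervals of the pair lay on opposite sides of 0. SLC7A4 and SLC7A14, relatives of these carriers, had 0 reads.

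In the SLC1 family the neutral exchangers were abundant and the glutamate carriers scarce. SLC1A5, which encodes ASCT2, a glutamine exchanger, had 156.91 TPM in floating and 141.97 TPM in adherent cells and was 1.16-fold higher in floating cells (1.11 to 1.21). SLC1A4, encoding ASCT1, which exchanges alanine, serine and cysteine, had 34.42 TPM in floating and 35.16 TPM in adherent cells, with a log2 ratio of 0.03 (-0.06 to 0.12). SLC1A1, encoding the glutamate and cysteine carrier EAAT3, had 3.56 TPM in floating and 4.37 TPM in adherent cells, and its interval included 0 (log2 ratio -0.25, -0.55 to 0.06). SLC1A6, encoding EAAT4, a glutamate carrier of cerebellar Purkinje cells, was the member past the 2-fold rule on the lower side. It had 14 reads in floating and 31 in adherent cells, 0.63 TPM in floating and 1.35 TPM in adherent cells, 2.25-fold lower (1.18 to 4.66), and did not reach 2-fold on TPM and with a prior count of 5. SLC1A3, the glial glutamate carrier EAAT1, had 6 reads in floating and 1 reads in adherent cells, and SLC1A7 had none.

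The sodium-coupled SLC38 carriers held the largest difference in TPM, -281.88 for SLC38A2 as floating minus adherent. SLC38A2 encodes SNAT2, a system A carrier of small neutral amino acids that cells raise when amino acids are short, and it was the most abundant member, ranking 178 among all genes by TPM in floating and 137 in adherent cells. It had 742.07 TPM in floating and 1023.95 TPM in adherent cells, a 1.34-fold lower level (1.32 to 1.35, from 46617 reads in floating and 60261 reads in adherent cells). Of the 86 genes of at least 1000 CPM, 3 (3.49%), SLC38A2 included, had a ratio at least as low. SLC38A1, encoding SNAT1, a related glutamine carrier, had 225.70 TPM in floating and 238.13 TPM in adherent cells. Its log2 ratio of -0.03 had an interval just below 0 (-0.056 to -0.005), which included 0 when libraries were scaled by their totals or by DESeq2's factors, and the ratio was 0.0353 once a trend over transcript length was removed. SLC38A2 transcripts were thus 3.29 times those of SLC38A1 in floating and 4.30 times in adherent cells. In RefSeq, SLC38A1, SLC38A2 and SLC38A4 are successive protein-coding genes. SLC38A4, a system A carrier of liver, had 0 floating and 4 adherent reads, and the system N carriers SLC38A3 and SLC38A5 had at most 3 reads.

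Other SLC38 members went both ways. SLC38A10, whose transport role is less settled, had 70.14 TPM in floating and 89.70 TPM in adherent cells, a 1.25-fold lower level (1.19 to 1.31). Of the 2555 genes of at least 100 CPM, 177 (6.93%), SLC38A10 included, had a ratio at least as low. SLC38A6, also less studied, was the second member past the 1.5-fold rule on the higher side, 1.66-fold higher (1.29 to 2.17), at 8.30 TPM in floating and 4.96 TPM in adherent cells and 164 reads in floating and 95 reads in adherent cells. SLC38A9, the lysosomal carrier that reports arginine to mTORC1, had 32.41 TPM in floating and 35.29 TPM in adherent cells, and SLC38A7, a lysosomal glutamine carrier, 14.84 TPM in floating and 14.28 TPM in adherent cells. The intervals of both included 0 (-0.21 to 0.05 and -0.08 to 0.28 on the log2 scale).

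Proton-coupled and facilitative carriers had ratios of at most 1.16-fold in either direction. SLC36A1, encoding the lysosomal carrier PAT1, was 1.09-fold higher in floating cells (1.02 to 1.18), at 20.49 TPM in floating and 19.32 TPM in adherent cells. SLC36A4, encoding PAT4, was 1.16-fold lower (1.06 to 1.28), at 27.46 TPM in floating and 32.85 TPM in adherent cells, and the intervals of the pair lay on opposite sides of 0. SLC36A2, which overlaps SLC36A1 in RefSeq, and SLC36A3 had 0 reads. SLC43A1 (LAT3) and SLC43A2 (LAT4), carriers of branched-chain and aromatic amino acids, had 6.60 and 4.69 TPM in floating cells and 6.87 and 4.87 TPM in adherent cells, and log2 ratios of 0.02 (-0.28 to 0.31) and -0.01 (-0.32 to 0.30). SLC43A3, known for carrying purine bases, had 0 reads in floating and 2 reads in adherent cells.

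The SLC6 family, which carries amino acids, neurotransmitters and osmolytes on sodium and chloride gradients, reached 1 CPM in 7 of 20 symbols. SLC6A15, encoding B0AT2, a neuronal carrier of branched-chain amino acids and proline, was the member past the 2-fold rule on the higher side. It had 80 reads in floating and 31 in adherent cells, 1.40 TPM in floating and 0.57 TPM in adherent cells, and was 2.47-fold higher (1.63 to 3.91). SLC6A17, encoding a vesicular carrier of neutral amino acids in neurons, was 1.23-fold lower (1.14 to 1.34) with 13.47 TPM in floating and 17.16 TPM in adherent cells. SLC6A9, encoding the glycine carrier GlyT1, was 1.21-fold lower (1.05 to 1.40), at 8.82 TPM in floating and 11.21 TPM in adherent cells. The GABA carrier SLC6A11 had 71 reads in floating and 51 reads in adherent cells and an interval that included 0 (-0.11 to 0.98 on the log2 scale). Among neuronal and glial markers, SYP was lower, at 12.52 TPM in floating and 20.32 TPM in adherent cells (log2 ratio -0.65, -0.85 to -0.46). OLIG2 was higher, at 6.95 TPM in floating and 4.27 TPM in adherent cells (0.74, 0.42 to 1.08). SNAP25 had 2.62 TPM in floating and 2.11 TPM in adherent cells, and RBFOX3 5.28 TPM in floating and 5.50 TPM in adherent cells. The intervals of SNAP25 and RBFOX3 included 0 (-0.20 to 0.92 and -0.33 to 0.30), and GFAP and AQP4 had 0 reads. The 6 summed to 27.37 TPM in floating and 32.20 TPM in adherent cells, and their part in the SLC6 ratios was not tested.

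Carriers of osmolytes in that family had intervals that included 0. The taurine carrier SLC6A6 had 8.96 TPM in floating and 9.13 TPM in adherent cells (interval -0.15 to 0.15 on the log2 scale). The creatine carrier SLC6A8 had 37.89 TPM in floating and 37.18 TPM in adherent cells (log2 ratio 0.09, -0.02 to 0.19). Its pseudogene SLC6A10P was 1.23-fold lower on its own (1.04 to 1.46, 258 reads in floating and 307 reads in adherent cells), but both have estimated counts with decimals, and the sum of the pair gave a log2 ratio of 0.03 (-0.07 to 0.12). SLC7A6OS was 1.17-fold higher (1.01 to 1.34), at 23.56 TPM in floating and 20.81 TPM in adherent cells, while SLC7A6 was lower. The 2 genes overlap on opposite strands in RefSeq, and the strand setting of the counting was not stated in the labels, so reads from the overlap cannot be assigned to either.

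**Figure D4:**
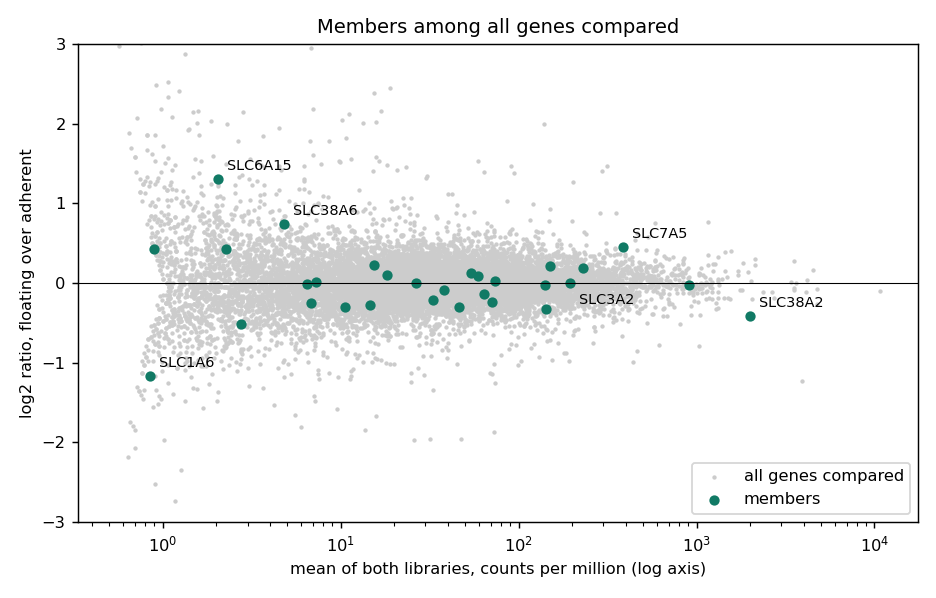
Log2 ratio of floating over adherent against the mean of both libraries in counts per 1000000 (log axis), for the 30 members (green) and all 13131 genes compared (grey); 11 genes lie beyond the axis limits of -3 and 3. SLC6A15 and SLC1A6 sit among scarce genes, where ratios spread widely, and SLC7A5 and SLC38A2 near the edge of the band of abundant genes.

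A question set by the biology is whether the ATF4-responsive carriers differed from the rest. The list held SLC7A11, SLC3A2, SLC7A5, SLC7A1, SLC7A3, SLC38A2, SLC1A4, SLC1A5, SLC6A9 and SLC43A1, of which 9 were compared. Their median log2 ratio was 0.02, against -0.03 for the 21 other members compared and -0.005 for all genes. Of the 9, SLC7A5, SLC1A5 and SLC7A1 had intervals above 0, SLC38A2 and SLC6A9 below 0, and SLC3A2, SLC7A11, SLC1A4 and SLC43A1 held 0. None was 1.5-fold apart. Of the 21 others, 4 intervals lay above and 9 below 0, where over all genes 25.5% lay above and 25.6% below. With pseudogenes and SLC7A6OS left out of the others, 3 of 18 lay above and 8 below, with a median log2 ratio of -0.06. The ATF4-responsive members together summed to 1476.32 TPM in floating and 1695.90 TPM in adherent cells. Without SLC38A2 the sum was higher in floating cells, at 734.25 TPM in floating and 671.95 TPM in adherent cells.

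Targets of ATF4 that are not transporters stood higher in the same libraries. Of 28 compared, 25 had intervals above 0, none below and 3 including 0 (25.5% of all genes above and 25.6% below, not matched for level). Their median log2 ratio was 0.45, against -0.005 over all genes. ATF4 itself had 484.07 TPM in floating and 408.43 TPM in adherent cells, 1.22-fold higher. STC2, a secreted glycoprotein, had 17.10 TPM in floating and 7.07 TPM in adherent cells, SESN2, a leucine sensor that restrains mTORC1, 33.48 TPM in floating and 15.94 TPM in adherent cells, and ATF3, a stress transcription factor, 29.16 TPM in floating and 14.61 TPM in adherent cells. ASNS, the asparagine synthetase gene, had a log2 ratio of 0.40 (0.34 to 0.45), close to that of SLC7A5, while SLC7A11 and SLC3A2 had the values near 0 given above. Ratios near 0 were not particular to transporters, as ATF5 had -0.002 (-0.09 to 0.08). CTH (-0.24, -0.51 to 0.02) and INHBE (0.70, -0.19 to 1.68) were the other non-transporter targets whose intervals included 0. Of the kinases that switch on ATF4 translation, EIF2AK4 (GCN2, which senses uncharged tRNA) and EIF2AK3 (PERK) had log2 ratios of 0.02 (-0.05 to 0.08) and 0.005 (-0.10 to 0.11). EIF2AK1 and EIF2AK2, also such kinases, had intervals above 0, with log2 ratios of 0.11 (0.07 to 0.15) and 0.06 (0.0007 to 0.11). Both lists and the members were put together with earlier results of these data known, and the difference between the lists was described, not tested.

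**Figure D5:**
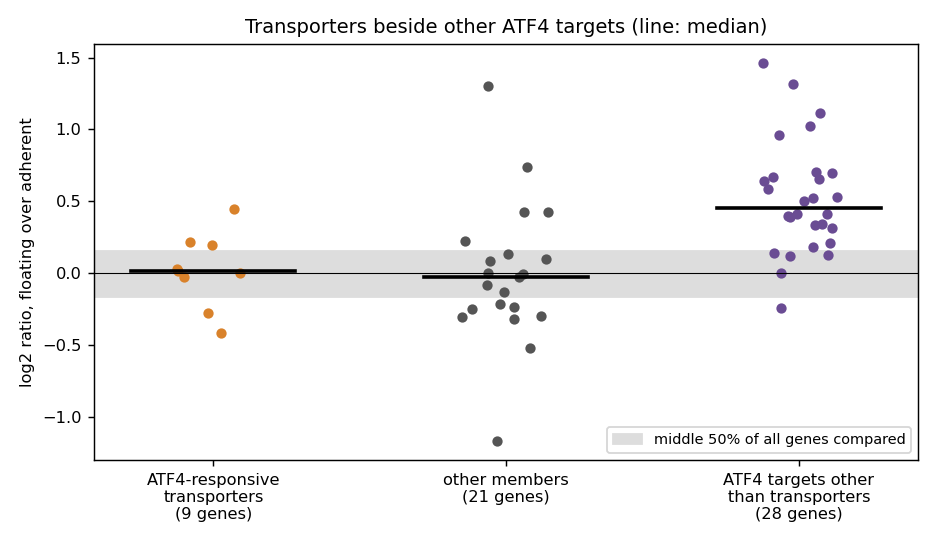
Log2 ratio of floating over adherent for the 9 ATF4-responsive transporters, the 21 other members and the 28 ATF4 targets that are not transporters, each point a gene and each line a median (0.02, -0.03 and 0.45); the grey band holds the middle 50% of all genes compared. Transporters of either group lie on both sides of 0, while the other ATF4 targets lie mostly above it.

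Promoter windows were examined for the element that ATF4 binds together with C/EBP factors, since the ATF4-responsive members went different ways. RefSeq windows of 250 bases before to 50 after an annotated start (GRCh38.p14) were at hand for 45 of the 63 members, and for 8 of the 10 ATF4-responsive ones, SLC7A11 and SLC7A3 not among them. The letters TGATGNAA were searched on both strands (reverse complement TTNCATCA). They were found in a window of 4 of 8 ATF4-responsive members (SLC1A4, SLC1A5, SLC3A2 and SLC7A1), of 2 of 37 other members (SLC1A3 and SLC38A1) and of 6 of 23 non-transporter ATF4 targets, against 4.46% of the 27305 genes with a window. Of all 35116 windows, 3.62% held them, against 4 of 14 windows of the ATF4-responsive members. The other members had 2 of 53 and the non-transporter targets 6 of 36. Both ATF4 lists were made of genes taken as ATF4 targets beforehand, so a larger share there is no independent result. Genes with several annotated starts have several windows, 3 each for SLC1A5 and SLC3A2, and the match lay in 1 of them. The windows below are of the members with the largest differences among the ATF4-responsive ones, SLC7A5 and SLC38A2, and of 3 that held the letters, SLC1A5, SLC7A1 and SLC3A2. For SLC1A5 and SLC3A2 the window shown was picked because it held the match. Which annotated start these cells use was not examined. Each is given 5′ to 3′ on the gene's strand in lower case, with matches in capitals.
SLC7A5: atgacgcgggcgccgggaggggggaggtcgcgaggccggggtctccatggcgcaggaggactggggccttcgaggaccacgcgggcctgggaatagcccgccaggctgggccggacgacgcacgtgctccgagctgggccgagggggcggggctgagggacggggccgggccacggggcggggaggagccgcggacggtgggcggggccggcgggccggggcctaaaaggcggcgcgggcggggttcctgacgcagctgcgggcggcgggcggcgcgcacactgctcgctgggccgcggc
SLC38A2: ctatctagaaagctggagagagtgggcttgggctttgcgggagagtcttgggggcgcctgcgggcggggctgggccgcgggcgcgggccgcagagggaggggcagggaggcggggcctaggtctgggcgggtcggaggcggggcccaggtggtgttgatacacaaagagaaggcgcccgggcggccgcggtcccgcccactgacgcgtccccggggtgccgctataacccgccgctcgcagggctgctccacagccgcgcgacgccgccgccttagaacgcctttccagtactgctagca
SLC1A5: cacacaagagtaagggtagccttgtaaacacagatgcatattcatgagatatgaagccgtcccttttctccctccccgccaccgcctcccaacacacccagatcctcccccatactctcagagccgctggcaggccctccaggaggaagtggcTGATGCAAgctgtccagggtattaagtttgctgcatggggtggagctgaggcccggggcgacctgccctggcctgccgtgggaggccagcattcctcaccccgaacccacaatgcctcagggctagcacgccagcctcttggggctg
SLC7A1: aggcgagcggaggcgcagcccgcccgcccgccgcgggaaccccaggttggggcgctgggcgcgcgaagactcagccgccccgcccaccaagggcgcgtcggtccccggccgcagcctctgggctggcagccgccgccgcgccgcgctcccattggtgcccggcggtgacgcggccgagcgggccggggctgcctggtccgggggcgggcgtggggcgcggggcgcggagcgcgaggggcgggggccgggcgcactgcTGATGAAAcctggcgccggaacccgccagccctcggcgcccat
SLC3A2: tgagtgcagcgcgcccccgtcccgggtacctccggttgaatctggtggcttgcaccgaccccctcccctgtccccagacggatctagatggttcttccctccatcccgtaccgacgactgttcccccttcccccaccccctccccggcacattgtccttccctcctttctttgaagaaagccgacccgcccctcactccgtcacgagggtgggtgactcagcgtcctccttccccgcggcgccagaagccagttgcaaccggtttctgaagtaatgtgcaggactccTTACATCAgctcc

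The windows are chr16:87869458-87869757 (minus strand) for SLC7A5, chr12:46372724-46373023 (minus) for SLC38A2, chr19:46784765-46785064 (minus) for SLC1A5, chr13:29595639-29595938 (minus) for SLC7A1 and chr11:62881449-62881748 (plus) for SLC3A2. Neither the gene with the highest ratio of the list, SLC7A5 (0.45), nor the one with the lowest, SLC38A2 (-0.42), held the letters in its window. The 4 genes of the list that held them had log2 ratios between 0.003 (SLC3A2) and 0.22 (SLC1A5). A match is a string of letters, not a bound site, and a window without one says nothing of elements elsewhere in the gene.

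Genes that use or sense the transported amino acids gave the setting. Of 14 measured NRF2 targets other than SLC7A11 (NRF2 also activates SLC7A11), 4 had intervals above 0 and 4 below (28.6% each), near the 25.5% and 25.6% of all genes, with a median log2 ratio of 0.06. Among them NQO1, a quinone reductase, had 206.77 TPM in floating and 257.99 TPM in adherent cells, FTH1, a ferritin chain, 2933.01 TPM in floating and 2417.49 TPM in adherent cells, and SRXN1, which repairs peroxiredoxins, 57.70 TPM in floating and 47.82 TPM in adherent cells. NFE2L2, which encodes NRF2, had a log2 ratio of -0.17 (-0.24 to -0.11), and KEAP1, its inhibitor, -0.14 (-0.23 to -0.06). Of 17 genes of glutathione and glutamine metabolism, 9 intervals lay above 0 and 1 below, against the same shares of all genes. The lists overlap: CHAC1, GPT2, CBS and CTH were also counted among the ATF4 targets, and GCLC, GCLM and GSR among the NRF2 targets. GOT1, an aspartate aminotransferase, was 1.60-fold higher at 120.26 TPM in floating and 77.24 TPM in adherent cells. CHAC2, which degrades glutathione, and GPT2, an alanine aminotransferase, had log2 ratios of 0.48 (0.24 to 0.74) and 0.41 (0.24 to 0.58). CHAC1 had the highest ratio of this list and of the non-transporter ATF4 targets (log2 ratio 1.46, 1.11 to 1.84). It had 249 reads in floating and 87 reads in adherent cells. The 1 below was GLUL, glutamine synthetase (log2 ratio -0.23, -0.28 to -0.17), named after its value was seen.

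Of 28 genes of amino acid sensing and the integrated stress response, 14 intervals lay above 0 and 4 below (25.5% of all genes above and 25.6% below), with a median log2 ratio of 0.11. SESN2, also counted among the ATF4 targets, was past the 2-fold rule (log2 ratio 1.12, 0.98 to 1.25). RRAGB, a Rag GTPase that recruits mTORC1 to the lysosome, was lower (-0.51, -0.75 to -0.27). The other Rag GTPase genes did not follow it. RRAGD (0.997, 0.69 to 1.31) and RRAGC (0.21, 0.11 to 0.32) were higher in floating cells, and the interval of RRAGA included 0 (0.03, -0.10 to 0.15). Carriers of amino acids and peptides outside the 7 symbol groups had 2 of 9 intervals above 0 and none below, against those same shares. The 2 were CTNS, the lysosomal cystine carrier (log2 ratio 0.18, 0.03 to 0.32), and TMEM104 (0.23, 0.07 to 0.39). MFSD12, a cysteine carrier of melanosomes and lysosomes, had a log2 ratio of 0.11 (-0.04 to 0.26).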

How the data were processed

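STAR 2.5.3a, RSEM 1.3.3, FastQC 0.11.1 and the build hg19 are named in the submitters' processing notes, with annotation, settings and strand use not given in the sources used here. Deposited by the authors were a table of estimated counts per gene, not normalized, and a table of TPM, scaled by the authors to a sum of about 1000000 per library. Counts were rounded (6.55% of floating and 6.38% of adherent values had decimals) and scaled by TMM in edgeR 4.0.16 (R 4.3.3). The log2 ratio used a prior count of 0.5, and genes of at least 1 CPM in either library were compared. Intervals are exact Clopper-Pearson intervals at 95%, conditional on a gene's summed reads. Reads carry no molecular identifiers, and neither intervals nor limits cover more than counting error. The calculation was tested on simulated counts with known folds and counting error alone. Variation between cultures and reads divided between genes were not simulated.

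Members followed the symbol rule. Every member could be named, and of each comparison list the 3 non-members with the largest ratios among genes of at least 10 CPM were named, with ATF4, EIF2AK4, EIF2AK3, NFE2L2 and KEAP1. Other list genes given were chosen after their values were seen. Members and lists were chosen with earlier results of these data known. Ratios were recomputed with upper-quartile scaling, with DESeq2 1.42.0 factors, with totals alone, from deposited TPM (log2 of TPM + 0.1), without a filter, with 5 CPM as the minimum, with 5 as the prior count, after removal of a lowess trend over effective length (reads per TPM), with pseudogenes merged or left out, and by fold with no interval. The shares of abundant genes at least as far out as SLC38A2, SLC7A5 and SLC38A10 were chosen after their values were seen. Gene neighbours and promoters came from RefSeq (GRCh38.p14), matched by symbol for 63 and 45 members. The files' build differs, so the window coordinates given are those of GRCh38.p14 and not of the build behind the counts. Python 3.11.15, numpy 2.4.6, scipy 1.17.1, pandas 2.3.3 and statsmodels 0.14.6 were used.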

Additional observations from a re-analysis of the deposited data

How the results depend on the processing

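Counts past a fold rule rest on scarce members. With a minimum of 5 CPM, 0 members were higher and 0 lower at 2-fold, and 1 was higher and 0 lower at 1.5-fold. With no filter 2 were higher at 2-fold, the second being SLC7A5P1. The lower 2-fold count was 0 on TPM and 0 with a prior count of 5, since SLC1A6 then missed 2-fold. Medians of the members, the ATF4-responsive members and the others moved by less than the median half-width of a member's interval (0.13 on the log2 scale) under all 9 alternatives that apply to them. Of 262 ratios of single members recomputed, 253 stayed within the interval, 8 moved outside it, and 1 whose interval excluded 0, that of SLC38A1, changed sign (0.0353 with the length trend removed). Many of the 262 had no room to move, so 253 overstates stability. A changed filter leaves a ratio as it is, and another scaling shifts all members alike. On TPM 26 ratios stayed within the interval and 4 moved. With the length trend removed 25 stayed and 4 moved, beside that of SLC38A1. Ratios near 0 whose intervals included 0 also changed sign under 1 or more alternatives, for SLC1A4, SLC3A2, SLC43A1, SLC43A2, SLC6A6 and SLC7A11. The 8 were of SLC1A5, SLC38A1, SLC38A2, SLC7A1, SLC7A11 and SLC7A5, on TPM or with that trend removed. With 1 library per growth form, no library could be left out and the spread between cultures is unknown. No paired analysis was possible because each growth form has 1 library.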
